A study of Homo sapiens with 12 samples.

Results

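The ferritin and transferrin receptor mRNAs and the mRNAs of the 2 proteins that bind them were followed in NOMO-1, a human acute myeloid leukaemia line of monocytic character. The genes were taken by name: FTH1, FTL, TFRC, ACO1 and IREB2. All 5 were present among the 9529 genes measured. The filter on low values removed no gene, so passing it says nothing of the 5. The shALKBH5 cells carried 1 of 2 lentiviral hairpins against ALKBH5, a demethylase that removes N6-methyladenosine from RNA, and the shNS cells carried a non-targeting hairpin. Both arms were selected with puromycin and then kept for 0, 8 or 12 h in actinomycin D, which stops transcription, so that the fall of each mRNA could be followed. Each shALKBH5 group held 1 library of each hairpin, named here line D and line E from the letters heading the deposited columns, and each shNS group held 2 replicates. The sources used here do not say which letter is which hairpin. The labels' treatment protocol names virus against FTO, another demethylase, whereas the sample titles name ALKBH5, and the titles were followed.

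Cells store iron in ferritin, a shell of heavy chains (FTH1), which oxidise iron, and light chains (FTL), which help to lay it down as a mineral. They take iron up with transferrin through the receptor TFRC. When iron is scarce, the iron regulatory proteins IRP1 (ACO1) and IRP2 (IREB2) bind iron-responsive elements, short hairpins in the untranslated regions (UTRs) of these mRNAs. Binding in the 5′ UTR of ferritin mRNA blocks its translation, and binding in the 3′ UTR of TFRC mRNA protects it from cleavage and decay. With iron at hand IRP1 takes up an iron-sulfur cluster and works as cytosolic aconitase, and IRP2 is degraded. Monocytes and macrophages handle much of the body's iron and keep large ferritin stores.

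The elements are shown because they set the ferritin mRNAs apart from TFRC in the way iron acts on them. A search for the letters CAGTG, after a C and any 5 bases and before any 6 bases, in which the 5 bases on each side of the loop could pair (A with T, G with C or T), was run on the sense strand of GENCODE release 29 transcripts on GRCh38. It found 1 match in the 5′ UTR of FTH1, 1 in the 5′ UTR of FTL and 4 in the 3′ UTR of TFRC. Each is printed 5′ to 3′ as DNA, 30 bases long, with the 6 loop bases in capitals.
FTH1 5′ UTR: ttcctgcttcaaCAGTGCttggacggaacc
FTL 5′ UTR: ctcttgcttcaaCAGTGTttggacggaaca
TFRC 3′ UTR, site 1: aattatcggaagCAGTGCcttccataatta
TFRC 3′ UTR, site 2: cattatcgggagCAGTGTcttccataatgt
TFRC 3′ UTR, site 3: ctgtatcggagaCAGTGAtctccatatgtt
TFRC 3′ UTR, site 4: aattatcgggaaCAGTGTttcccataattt

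The FTH1 match lies in exon 1 of 4 at chr11:61967573-61967602 on the minus strand, and the FTL match in exon 1 of 4 at chr19:48965335-48965364 on the plus strand. The TFRC matches all lie in exon 19 of 19 on the minus strand, at chr3:196050978-196051007, chr3:196050574-196050603, chr3:196050509-196050538 and chr3:196050462-196050491. The ferritin windows shared 26 of 30 bases with each other and only 9 to 13 with any TFRC window, while the TFRC windows shared 19 to 25 among themselves. The same search matched 12 of 8719 genes in a 5′ UTR (0.138%) and 76 of 8747 in a 3′ UTR (0.869%). The pattern describes the known element, so the ferritin and TFRC matches were fixed in advance and test nothing. Neither EPAS1 nor SLC11A2, mRNAs with a reported element, matched in a UTR, so the pattern need not find every reported element. ACO1 and IREB2 held no match. A match is a string of letters and shows no binding.

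The deposited table gave a normalised signal for 9529 genes and 46 ERCC spike-in transcripts. The gene total per library was 826000 to 953211 at 0 h, 390103 to 580217 at 8 h and 143765 to 193639 at 12 h, while the median spike-in stayed at 29.9 to 33.1. A fall in signal is therefore read per unit of spike-in, and fewer cells cannot be told apart from less RNA per cell. Read depth is unknown, and no label calls the replicates separate cultures, so each p-value reflects only the spread of these libraries. ALKBH5 itself was lower in every shALKBH5 library, with 25.4 (line D) and 21.2 (line E) against 84.3 and 78.6 in shNS at 0 h (log2 difference -1.77, SE 0.29, limma adjusted p = 0.0202). That call was lost in 8 of 22 alternatives (adjusted p up to 0.268), and the 12 h call in 3 of 22. The 8 h call held in 22 of 22 and the one across times in 23 of 23. Of 9 myeloid markers 6 were present, CD33, CD68, ITGAM, LYZ, ELANE and SPI1, while MPO, CD14 and CSF1R had no row. The markers present had a summed signal of 2416 to 2770 in shALKBH5 and 1078 to 1086 in shNS at 0 h. No gene of the erythroid or epithelial lists was in the table. The myeloid sum was thus higher in both knockdown lines, though an abundant marker can carry such a sum. Its part in the differences described here was not tested.

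FTL, the ferritin light chain gene (chromosome 19, 48965301 to 48966878, plus strand), was the member that differed between knockdown and control over the 3 times. At 0 h line D had a signal of 11881 and line E one of 11841, against 7493 and 7262 in the shNS replicates. At 8 h it was 8733 and 7642 in lines D and E against 7418 and 6617 in shNS, and at 12 h it was 5859 and 3128 against 2846 and 2743. Both lines lay above both controls at each of the 3 times, and before actinomycin D the lines were all but equal. The mean at 0 h was 11861 ± 28.3 in shALKBH5 and 7378 ± 163 in shNS (SD, n = 2 each), a ratio of 1.61, and the ratio was 1.17 at 8 h and 1.61 at 12 h. Across times FTL rose by 0.51 on the log2(signal + 1) scale (SE 0.15, limma adjusted p = 0.0237, 6 libraries against 6). It was the only 1 of the 5 members called, that is with an adjusted p under 0.05, where 11.9% of all genes were called higher and 9.14% lower. The call missed the threshold in 8 of 23 alternatives, among them the mean of each line in place of its 3 libraries (adjusted p = 0.0810), a correlation estimated within lines (0.103), and the gene's own spread in place of one moderated over all genes (0.0654). Leaving out shNS replicate 1 or 2 at 0 h also ended it (0.0549 and 0.0558), as did leaving out either at 12 h (0.0526 and 0.0622) or all 12 h libraries (0.0952).

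At single times FTL did not pass. The log2 difference was 0.69 (SE 0.25, limma adjusted p = 0.143) at 0 h, 0.22 (SE 0.25, adjusted p = 0.602) at 8 h and 0.62 (SE 0.25, adjusted p = 0.224) at 12 h. The 0 h difference was called with scaling to ribosomal protein genes (0.72, adjusted p = 0.0480) and after leaving out the 12 h library of line D (0.0235) or of line E (0.0233). It was 0.69 with line D and 0.68 with line E as the only knockdown line. At 0 h the median gene differed by 0.23 between shALKBH5 and shNS, and median-of-ratios scaling took FTL to 0.43 (adjusted p = 0.445).

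FTH1, the ferritin heavy chain gene (chromosome 11, 61959718 to 61967660, minus strand), was high in line D and near control in line E. At 0 h line D had a signal of 1779 and line E one of 703, against 661 and 633 in the shNS replicates. At 8 h it was 1648 and 534 in lines D and E against 704 and 627 in shNS, and at 12 h it was 1295 and 235 against 335 and 294. Line D thus stood at 2.75, 2.48 and 4.12 times the shNS mean at 0, 8 and 12 h, and line E at 1.09, 0.802 and 0.749 times. Line E was above both controls at 0 h and below both at 8 and 12 h. The knockdown mean at 0 h was 1241 ± 761 against 647 ± 19.7 in shNS (SD, n = 2 each). Between the arms FTH1 differed by 0.79 (SE 0.67, limma adjusted p = 0.518) at 0 h, 0.50 (adjusted p = 0.675) at 8 h, 0.81 (adjusted p = 0.561) at 12 h and 0.70 (SE 0.33, adjusted p = 0.136) across times. With line E as the only knockdown line the difference was 0.12 at 0 h, -0.31 at 8 h and -0.41 at 12 h. Across times it was called without line E at 8 h (0.93, adjusted p = 0.0165) or at 12 h (0.99, adjusted p = 0.0142), and with scaling to ribosomal protein genes (1.04, adjusted p = 0.0249).

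Processed pseudogenes nearly identical to the ferritin mRNAs can share their reads. One of them, FTH1P3, had a row of its own, with a signal at 0 h of 6.04 in line D and 2.30 in line E against 2.05 and 1.84 in shNS. Like FTH1 it stood higher in line D than in the other libraries at 0 h, and how reads were divided between the rows was not tested.

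**Figure D1:**
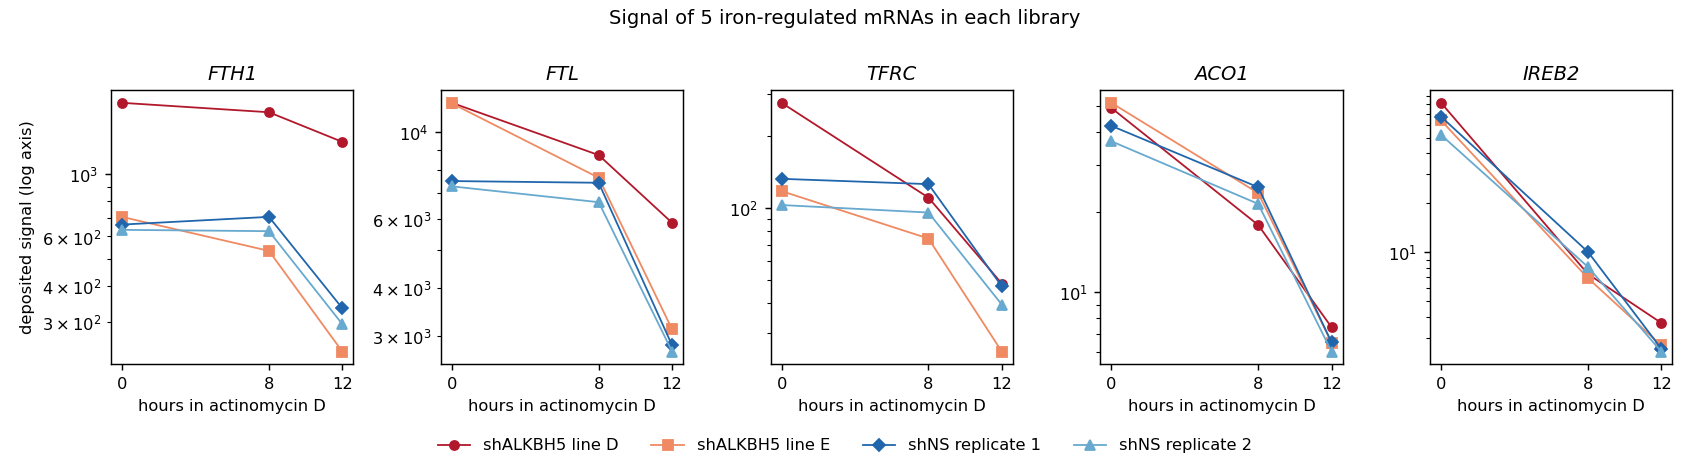
Deposited signal (log axis) of FTH1, FTL, TFRC, ACO1 and IREB2 against hours in actinomycin D, with 1 line per library series, shALKBH5 lines D and E in red tones and shNS replicates in blue. Line D runs above the other series throughout for FTH1, FTL starts at 11881 and 11841 in the knockdown lines against 7493 and 7262 in shNS, and IREB2 has the steepest fall.

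TFRC, the transferrin receptor gene (chromosome 3, 196027183 to 196082189, minus strand), also stood highest in line D before actinomycin D, and the excess was gone by 8 h. At 0 h line D had a signal of 275 and line E one of 117, against 132 and 103 in the shNS replicates. At 8 h it was 110 and 74.4 in lines D and E against 126 and 95.6 in shNS, and at 12 h it was 48.2 and 25.0 against 46.9 and 39.4. Line E was below both controls at 8 and 12 h, and the arms overlapped at all 3 times. Line D stood at 2.34 times the shNS mean at 0 h, 0.998 times at 8 h and 1.12 times at 12 h. Line E stood at 1.00, 0.673 and 0.580 times at these times. The log2 difference between the arms was 0.62 (SE 0.39, limma adjusted p = 0.364) at 0 h, -0.27 (adjusted p = 0.693) at 8 h, -0.30 (adjusted p = 0.730) at 12 h and 0.02 (SE 0.22, adjusted p = 0.965) across times.

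The 2 regulators lay close to control. ACO1, the IRP1 gene (chromosome 9, 32384603 to 32454769, plus strand), had a signal at 0 h of 49.1 in line D and 51.3 in line E against 42.1 and 36.9 in shNS. At 8 h it was 17.9 and 23.6 in lines D and E against 24.8 and 21.5, and at 12 h it was 7.40 and 6.48 against 6.49 and 6.00. Only at 0 h did both lines lie above both controls, with a ratio of the means of 1.27. IREB2, the IRP2 gene (chromosome 15, 78437431 to 78501456, plus strand), had 81.5 for line D and 63.6 for line E against 67.1 and 51.9 in shNS at 0 h. At 8 h it was 7.35 and 6.94 in lines D and E against 10.0 and 8.12, and at 12 h it was 3.70 and 2.70 against 2.57 and 2.47. The knockdown lines lay below both controls at 8 h and above both at 12 h. Across times ACO1 differed by 0.10 (SE 0.13, limma adjusted p = 0.610) and IREB2 by 0.07 (SE 0.14, adjusted p = 0.748).

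At 0 h the groups did not overlap for FTH1, FTL and ACO1, all higher in shALKBH5, as they did for 46.4% of all genes. At 8 h this held for FTL (higher, 10.4% of all genes) and IREB2 (lower, 42.8%), and at 12 h for FTL and IREB2 (both higher, 33.0%). The limma test called 0 of the 5 members at 0 h, where it called 1.33% of genes higher and 0.136% lower. It also called 0 at 8 h (0.420% and 4.51% of genes) and 0 at 12 h (0.525% and 0.493%). At an unadjusted limma p under 0.05 FTL passed at 0 and 12 h, and no member passed at 8 h, where 22.2% of all genes passed at 0 h, 17.6% at 12 h and 25.9% at 8 h. The split of the calls over all genes moved with the scaling. With median-of-ratios scaling 9 genes were called higher and 26 lower at 0 h (127 and 13 without it), and 367 and 322 at 8 h (40 and 430 without it). Scaling to ribosomal protein genes gave 1135 and 46 at 8 h, 2383 and 102 at 12 h and 4599 and 336 across times.

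**Figure D2:**
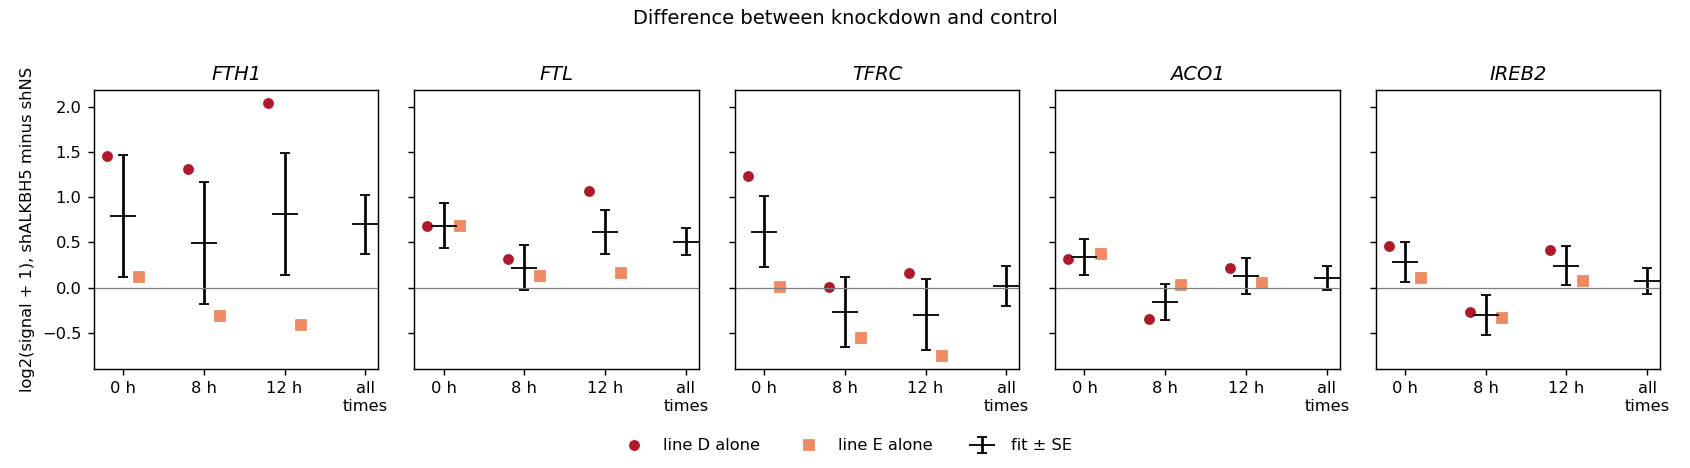
Difference in log2(signal + 1) between shALKBH5 and shNS at 0, 8 and 12 h and over all times; the bar is the limma estimate with its SE, the circle is line D and the square line E against the shNS mean. For FTH1 the circle lies above 1 at every time while the square falls to -0.41 at 12 h, and for FTL both lie above 0 throughout.

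After transcription was stopped, the ferritin mRNAs were among the slowest to fall and IREB2 among the fastest. Percent left is the later signal as a share of the 0 h signal of that line or replicate. By 8 h FTH1 kept 92.6% in line D and 75.9% in line E, against 106% and 98.9% in shNS, where 98.6% to 99.8% of genes kept less. By 12 h it kept 72.8% and 33.4% in lines D and E against 50.6% and 46.4% in shNS. FTL kept 73.5% and 64.5% in lines D and E by 8 h against 99.0% and 91.1% in shNS, and 49.3% and 26.4% by 12 h against 38.0% and 37.8%. At least 97.1% of genes kept less than either ferritin mRNA by 12 h in every library, and line D kept most of both. The median gene kept 23.9% and 33.6% in lines D and E by 8 h against 42.2% and 41.1% in shNS, and 10.9% and 10.7% by 12 h against 11.9% and 12.9%.

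TFRC was nearly as persistent in control cells and less so in the knockdown lines. It kept 40.2% in line D and 63.4% in line E by 8 h, against 95.0% and 93.0% in shNS, and 17.5% and 21.3% by 12 h against 35.5% and 38.3%. Those values exceeded the percent left of 80.6% and 94.1% of genes in lines D and E at 8 h against 97.6% and 98.8% in shNS, and of 75.2% and 92.2% at 12 h against 96.0% and 98.1%. ACO1 kept 36.4% and 45.9% in lines D and E by 8 h against 58.9% and 58.2% in shNS, and 15.1% and 12.6% by 12 h against 15.4% and 16.3%, somewhat above the median gene in each library. IREB2 kept 9.02% and 10.9% in lines D and E by 8 h against 15.0% and 15.6% in shNS, and 4.53% and 4.24% by 12 h against 3.84% and 4.76%. Only 4.22% to 7.71% of genes kept less than IREB2 in any library at either time. The mRNAs of IRP1 and IRP2, which bind the same elements, thus lay far apart on this measure.

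**Figure D3:**
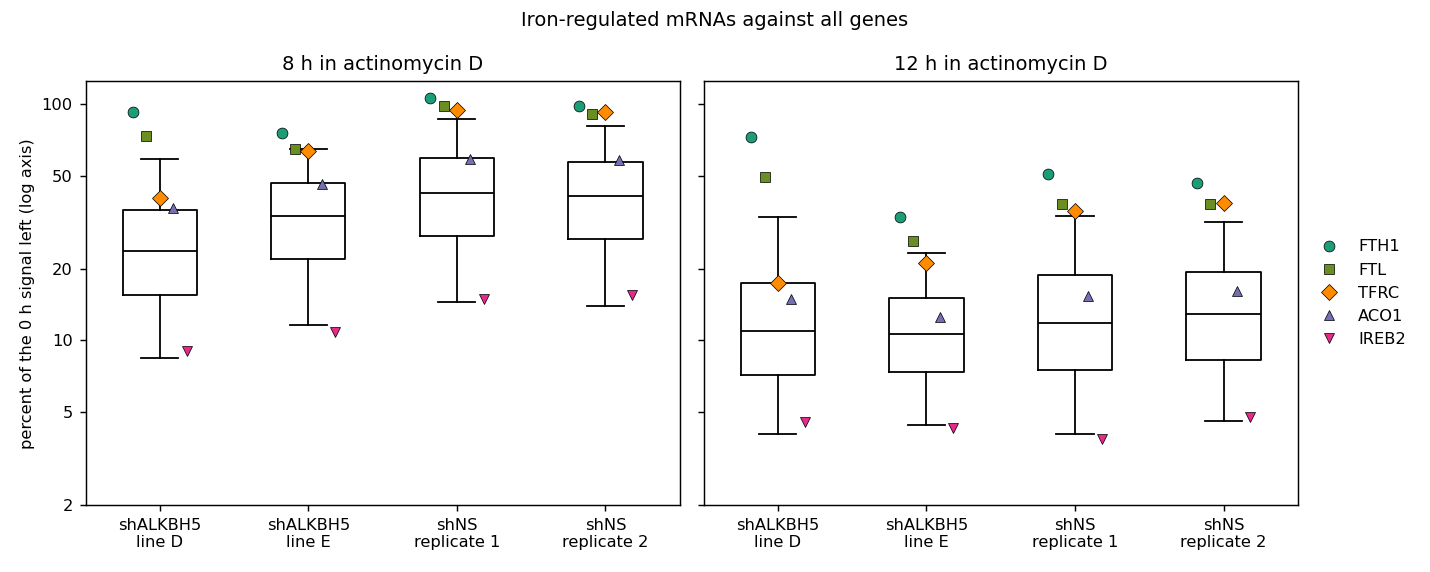
Percent of the 0 h signal left (log axis) at 8 h and 12 h in shALKBH5 lines D and E and shNS replicates 1 and 2; boxes show all 9529 genes (median, quartiles, whiskers from the 5th to the 95th percentile) and markers the iron-regulated mRNAs. FTH1 is the highest member in every library, IREB2 lies near or under the lower whisker, and TFRC lies at 95.0% and 93.0% in shNS at 8 h but 40.2% and 63.4% in the knockdown lines.

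The limma test of these falls used the level at 0 h of the same arm. In shALKBH5 cells TFRC (-0.98, SE 0.39, adjusted p = 0.0277), ACO1 (-1.25, adjusted p = 6.06e-05) and IREB2 (-3.16, adjusted p = 1.06e-07) fell by 8 h, 3 of 5 where 96.0% of genes fell. FTL stood at -0.54 (SE 0.25, adjusted p = 0.0515) and FTH1 at -0.25 (adjusted p = 0.714). By 12 h FTL (-1.47), TFRC (-2.34), ACO1 (-2.69) and IREB2 (-4.13) fell in shALKBH5, 4 of 5 where 99.6% of genes fell, and FTH1 stood at -1.02 (adjusted p = 0.157). In the shNS cells ACO1 (-0.75, SE 0.20, adjusted p = 0.00412) and IREB2 (-2.58, SE 0.22, adjusted p = 8.51e-07) fell by 8 h, 2 of the 5 members, where 82.2% of all genes fell. FTH1 stood at 0.04 (SE 0.67), FTL at -0.07 (SE 0.25) and TFRC at -0.09 (SE 0.39), with adjusted p of 0.777 or more. By 12 h FTL (-1.40, adjusted p = 0.000102), TFRC (-1.42, adjusted p = 0.00323), ACO1 (-2.48) and IREB2 (-4.09) fell in shNS, 4 of 5 where 99.5% of genes fell, and FTH1 stood at -1.04 (SE 0.67, adjusted p = 0.148). With the line or replicate as a block FTH1 fell by 12 h in both arms (adjusted p = 1.62e-08 in shALKBH5 and 7.07e-09 in shNS) and FTL by 8 h in shALKBH5 (0.0176). With the block and each gene's own spread FTH1 kept its call in both arms (0.0255 in shALKBH5 and 0.0235 in shNS), and FTL did not (0.0899). All these falls are per unit of spike-in. With median-of-ratios scaling, which sets the median gene to no change, FTH1, FTL, TFRC and ACO1 stood above their 0 h level in both arms at 8 and 12 h (by 0.33 to 2.18) and IREB2 below it. In that scaling 21.3% of genes were called higher and 23.7% lower by 8 h in shALKBH5 (18.9% and 23.6% in shNS), and 22.1% and 24.2% by 12 h (24.6% and 27.0% in shNS). The 8 h fall of TFRC in shALKBH5 was not called without line D at 0 h (-0.37, adjusted p = 0.358), without line E at 8 h (-0.70, 0.170), rescaled to the spike-in mean (-0.82, 0.0588), scaled to ribosomal protein genes (-0.18, 0.694) or with its own spread (0.102).

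The difference between these changes, shALKBH5 minus shNS, asks whether an mRNA fell further in the knockdown. TFRC had the largest of the 5 at both times, -0.89 (SE 0.55, limma adjusted p = 0.325) by 8 h and -0.92 (SE 0.55, adjusted p = 0.985) by 12 h. No member was called at either time, and neither was any of the 9529 genes (0% called), although 1560 genes at 8 h and 337 at 12 h had an unadjusted p under 0.05. The median gene stood at -0.48 by 8 h and -0.19 by 12 h. By 8 h FTH1 stood at -0.29 (SE 0.95), FTL at -0.46 (SE 0.35), ACO1 at -0.50 (SE 0.28) and IREB2 at -0.58 (SE 0.31). At 8 h all 5 members, TFRC included, lay within an SE of the median gene. By 12 h FTH1, FTL, ACO1 and IREB2 stood at 0.03, -0.07, -0.21 and -0.04.

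Percent left was compared in the same way. By 8 h all 5 members kept less in both lines than in both controls, as 82.5% of genes did, and by 12 h TFRC and ACO1 did, as 41.2% of genes did. Divided by the median gene of its library, TFRC kept 1.68 and 1.88 times as much in lines D and E at 8 h against 2.25 and 2.26 times in shNS, and 1.60 and 2.00 times at 12 h against 2.98 and 2.97 times. TFRC was the only member lower with no overlap on this scale at 8 h, where 21.1% of genes were, and at 12 h, where 23.7% were. With the line or replicate as a block, the TFRC difference had an SE of 0.23 and was called at both times (limma adjusted p = 0.00533 by 8 h, where 26.1% of genes were called lower, and 0.00838 by 12 h, where 2.19% were). In that fit limma moved each gene's spread fully to one trend over all genes. With the block and its own spread TFRC was not called (0.173 and 0.487), and with the block and median-of-ratios scaling it stood at -0.34 (0.419) by 8 h and -0.74 (0.0393) by 12 h. Line D as the only knockdown line gave -1.22 and -1.07, and line E -0.56 and -0.77. Each group of such a fit holds 1 knockdown library, with no spread of its own, so no p is given. Without line D at 0 h the differences were -0.28 and -0.31, and without line E at 0 h they were -1.50 and -1.53. The 12 h difference was -0.46 without line E at 12 h. None of these fits that leave out 1 library called TFRC.

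From 8 to 12 h IREB2 kept 50.3% in line D and 38.8% in line E against 25.6% and 30.4% in shNS. It was the only member higher in both lines than in both controls, as 48.3% of genes were, and it remained so over the median gene, as 27.0% of genes did. In the same interval TFRC kept 0.908 and 1.02 times the median gene in lines D and E against 1.25 and 1.25 in shNS. By 12 h IREB2 kept 0.415 and 0.397 times the median gene in lines D and E against 0.323 and 0.368 in shNS. The knockdown libraries had less IREB2 left at 8 h to begin with.

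The 2 knockdown lines differed from each other in FTH1 and TFRC. FTH1 was 2.53, 3.09 and 5.50 times as high in line D as in line E at 0, 8 and 12 h, a difference of 1.81 (SE 0.20, limma adjusted p = 1.23e-17) over the times. TFRC was 2.34, 1.48 and 1.92 times as high in line D, a difference of 0.90 (SE 0.18, adjusted p = 1.96e-05). Both were higher in line D at 3 of 3 times, 2 of the 5 members called where 14.2% of genes were called higher in line D and 14.9% lower. FTL differed by 0.37 (SE 0.22, adjusted p = 0.207), since its ratio of line D to line E was 1.00 at 0 h, 1.14 at 8 h and 1.87 at 12 h. IREB2 differed by 0.26 (SE 0.19, adjusted p = 0.305) and ACO1 by -0.09 (SE 0.18, adjusted p = 0.748). Each line was 1 library per time, so this compares those libraries, and limma again moved each gene's spread fully to one trend. With its own spread FTH1 was still called (adjusted p = 0.00581), and TFRC was not (0.0698). ALKBH5 differed by -0.36 (SE 0.19, adjusted p = 0.126) between line D and line E, with a ratio of 1.20 at 0 h, 0.354 at 8 h and 0.653 at 12 h. The later ratios rest on low signals, 1.52 and 4.29 in lines D and E at 8 h and 0.636 and 0.973 at 12 h. The lowest gene in lines D and E stood at 0.753 and 0.853 at 8 h and at 0.433 and 0.338 at 12 h.

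Other genes of iron, heme and oxidative stress handling were given in 9 lists, with 61 of their 73 genes measured. Across times 12 were called higher and 3 lower in shALKBH5, against 11.9% and 9.14% of all genes. Their median difference was 0.10, and that of all genes was 0.02. The fit across times counted the 3 libraries of a line as separate, which they are not. With the mean of each line instead, only 2.72% of all genes were called higher and 2.42% lower. Genes for heme synthesis and breakdown had 4 of 12 called higher and 1 lower. The heme oxygenase genes, whose enzymes free iron from heme, were both among them, HMOX1 at 1.10 (SE 0.28, limma adjusted p = 0.0108) and HMOX2 at 0.81 (SE 0.13, adjusted p = 0.000398). ALAS1, which encodes the first enzyme of heme synthesis, rose by 0.84 and UROD, a later enzyme, by 0.64. FECH, which encodes the enzyme that puts iron into heme, fell by 0.53. HMOX1 at 0 h had a signal of 34.8 and 6.97 in lines D and E against 2.71 and 3.75 in shNS, so both lines lay above both controls and line D far above line E. With their own spread HMOX1, FECH, NQO1, FDX1L, SLC39A14 and FBXL5 were not called across times. Of these, FBXL5 lost its call in 11 of 23 alternatives, FECH in 10 and NQO1 in 7, while HMOX1 lost it in 1 and HMOX2, ALAS1 and UROD in 0 to 2.

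Regulators and targets of the oxidative stress response that can raise ferritin transcription had 3 of 9 called higher and 0 lower. They were NQO1, a quinone reductase gene (1.07, limma adjusted p = 0.0224), GCLM, a subunit of the enzyme that starts glutathione synthesis (0.63), and KEAP1, a repressor of that response (0.60). NQO1 at 0 h had a signal of 44.1 for line D and 12.5 for line E against 9.89 and 8.17 in shNS. GCLM at 0 h had a signal of 22.6 and 13.8 in lines D and E against 8.57 and 7.67 in shNS. It was the only 1 of 61 listed genes called at 0 h (1.03, limma adjusted p = 0.0375), where 1.33% of all genes were called higher. It lost that call in 11 of 22 alternatives, and across times it was called in 23 of 23.

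Of the mitochondrial iron import and iron-sulfur assembly genes 3 of 20 were called higher and 0 lower, FDX1L (0.69), ISCA2 (0.41) and NUBP1 (0.60). FDX1L encodes a mitochondrial ferredoxin, and ISCA2 and NUBP1 assembly factors of mitochondria and cytosol. Of 6 iron uptake genes, STEAP3, an iron reductase gene (0.41), and SLC39A14, a transporter gene (0.45), were called higher. These 5 calls were held in 8 to 21 of 23 alternatives. FLVCR1, a heme exporter gene and the only export gene measured, stood at 0.04 (SE 0.15). Of the 3 genes for factors reported to act on TFRC mRNA none was called across times, and RC3H2, with the highest mean signal, stood at -0.07 (SE 0.13).

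Besides FECH, the lower genes were NCOA4 and FBXL5. NCOA4, the receptor that carries ferritin to the lysosome for breakdown, fell by 0.85 (SE 0.19, limma adjusted p = 0.00515), 1 of 4 genes for iron chaperones and ferritinophagy. At 12 h it had a signal of 12.2 and 20.5 in lines D and E against 37.8 and 35.4 in shNS, and at 0 h it was 157 and 175 against 207 and 180. The arms lay apart at both times, more widely after actinomycin D. FBXL5, the ligase subunit that senses iron and marks IRP2 for degradation, fell by 0.46 (adjusted p = 0.0276), 1 of 5 IRP2 degradation genes. Of the other mRNAs with a reported iron-responsive element, EPAS1, which encodes a hypoxia-inducible factor, stood at -0.23 (SE 0.20), SLC11A2, an iron transporter gene, stood at 0.0032 (SE 0.15), and neither was called. At 8 h NCOA4 (-1.18) and FBXL5 (-0.93) were the 2 of 61 listed genes called lower, where 4.51% of all genes were called lower. At that time 0 were called higher, where 0.420% of all genes were. FBXL5 was low at 8 h, with a signal of 1.54 and 1.93 in lines D and E against 4.64 and 3.82 in shNS. The 8 h calls of NCOA4 and FBXL5 were lost in 11 and 7 of 22 alternatives. At 12 h 0 were called in either direction, where 0.525% of all genes were called higher and 0.493% lower.

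**Figure D4:**
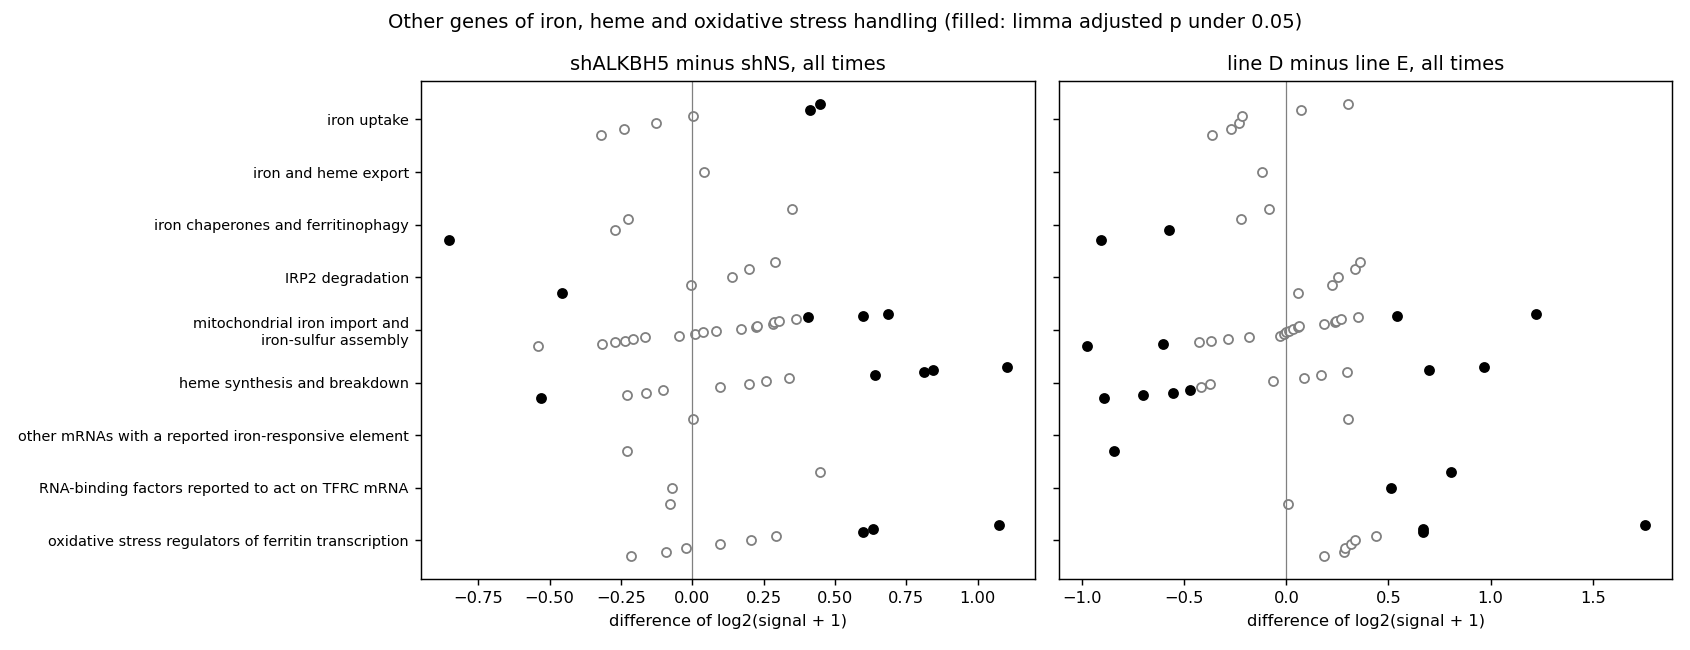
Difference of log2(signal + 1) over all times for each measured gene of the 9 lists, shALKBH5 minus shNS on the left and line D minus line E on the right; filled points have a limma adjusted p under 0.05. NCOA4 is the leftmost point on the left at -0.85 and MMS19 on the right at -0.98, HMOX1 is the rightmost on the left at 1.10, and NQO1 is the rightmost on the right at 1.75.

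Between the lines 9 of the 61 listed genes were higher and 9 lower in line D, against 14.2% and 14.9% of all genes. Line D held more of the stress genes NQO1 (1.75), TXNRD1 (0.67) and MAFK (0.67), of HMOX1 (0.97) and ALAS1 (0.70), and of FDX1L (1.22) and SLC25A28 (0.54). It also held more ZC3H12A (0.80) and RC3H1 (0.51), 2 of the 3 genes for factors reported to act on TFRC mRNA. ZC3H12A encodes regnase-1, an endonuclease, and RC3H1 encodes roquin-1, which binds stem-loops in mRNAs. ZC3H12A at 0 h had a signal of 15.6 for line D and 7.61 for line E against 7.57 and 5.22 in shNS. Line D held less of the iron chaperone gene PCBP1 (-0.91), of NCOA4 (-0.57) and EPAS1 (-0.84), and of the heme genes ALAD (-0.89), CPOX (-0.55), PPOX (-0.70) and BLVRA (-0.47). SLC25A37 (-0.60), the mitochondrial iron importer gene, and MMS19 (-0.98), of the iron-sulfur delivery complex, were lower too. With their own spread HMOX1, NCOA4, BLVRA, MAFK, RC3H1 and SLC25A28 were not called between the lines, and NQO1, FDX1L, PCBP1, MMS19, ALAD, PPOX and EPAS1 were called in all 21 alternatives.

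The genes with the pattern most like each member were found by Pearson correlation of log2(signal + 1), less the library median, over the 12 libraries. These libraries share lines and times, so the values are descriptions. FTH1 was most like GALNT6 (0.995), CES1P2 (0.991) and TAX1BP3 (0.989), with FTH1P3 at rank 53 (0.960). FTL was most like S100A6 (0.994), SCPEP1 (0.993) and SH3BGRL3 (0.992). TFRC was most like LIMS1 (0.971), MSRB3 (0.968) and NDUFAF1 (0.966). ACO1 was most like GLUD1 (0.991), SLC38A10 (0.983) and NDUFS8 (0.982). IREB2 was most like CEBPZ (0.992), TNKS2 (0.991) and WDR75 (0.991). No member was among the 3 genes most like another.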

How the data were processed

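The 12 libraries were made from NOMO-1 poly(A) RNA with a stranded kit, per the labels' protocols. STAR, RSEM and GRCh38 are named in the submitters' processing notes, without versions. The authors' deposited table lists genes by symbol with a normalised expression signal, whose unit before scaling the sources used here do not give. The spike-ins held steady while gene totals fell, so the signal is apparently scaled to them, a step that no label states. The unit per length is unknown, so levels were compared between genes only to pick the gene of a list with the highest mean signal. They were added over genes only for the sums of cell type markers. With depth unknown, no counting interval could be formed.

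The members and gene lists were chosen with earlier results of these data known. Values were tested as log2(signal + 1), on genes with a mean of at least 1, in R 4.3.3 with limma 3.58.1 (mean-variance trend, empirical Bayes), with Benjamini-Hochberg adjustment over 9529 genes and calls at an adjusted p under 0.05. Folds on this scale understate the change of low genes. A fit of 6 group means served for the comparisons within times, the changes and their differences. Models of time with knockdown and of time with line gave the comparisons across times. For line D minus line E, for the block and for each line as the only knockdown line, limma estimated no spread of single genes around the trend. Each gene's own residual spread was therefore added as an alternative (not for single lines) after the data were seen, as were rescaling to the spike-in mean, leaving out the 8 or 12 h libraries, and the block with median-of-ratios scaling or with own spread. The procedure was tested on simulated data.

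The pairing of libraries comes from the letters and replicate numbers in the table's headers. Deviations from the group means correlated between times at 0.657 to 0.900 for the knockdown lines and at 0.0651 to 0.271 for the shNS numbers. The letters mark one line each, so blocked values are given where they change a call, while the shNS numbers do not pair by this measure.

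Named genes were the members, ALKBH5, every listed gene called in a comparison described, otherwise the gene of a list with the highest mean signal, and the 3 genes most like each member. SD is over 2 libraries, SE is that of the fit, and coordinates are from GENCODE release 29 on GRCh38. Of the genes with the highest signal in their lists BLVRB, HSPA9, FAM96A and PCBP1 were not called across times. Some genes of the lists are not reported here.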

Additional observations from a re-analysis of the deposited data

Results flagged for a closer look

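The knockdown lines differed from each other in FTH1, by 1.81 on the log2 scale (line D minus line E, SE 0.20, limma adjusted p = 1.23e-17, higher in line D at 3 of 3 times). The FTH1 call held in 21 of 21 alternatives, between 1.48 and 1.99. TFRC differed between the lines by 0.90 (SE 0.18, limma adjusted p = 1.96e-05, higher in line D at 3 of 3 times). That call held in 20 of 21 alternatives, between 0.59 and 1.11, and was lost with the gene's own spread (adjusted p = 0.0698). The main fit counted the 3 times of a line as replicates, and limma moved each gene's spread fully to one trend. The alternatives reuse the same libraries, so they are no separate support. ALKBH5 differed by -0.36 (SE 0.19, adjusted p = 0.126) in the same comparison, an average over times that did not agree in direction. Its ratio of line D to line E was 1.20 at 0 h, 0.354 at 8 h and 0.653 at 12 h. The ALKBH5 signal behind the later ratios was low, 1.52 and 4.29 in lines D and E at 8 h and 0.636 and 0.973 at 12 h. Each hairpin was represented by 1 library per time, and whether a second culture of either line would show these differences was not tested.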

How the results depend on the processing

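The direction of the changes over time depends on the scale. Median-of-ratios scaling sets the median gene to no change by construction, and it turned the FTH1 changes to 1.97 (shNS, 12 h), 1.60 and 2.18 (shALKBH5, 8 and 12 h), with a difference of the 8 h change of 0.26. It turned FTL to 1.32 and 1.73 in shALKBH5 and 1.23 and 1.62 in shNS at 8 and 12 h (differences 0.087 and 0.11), TFRC to 0.86 and 0.82 against 1.20 and 1.56, and ACO1 to 0.54 and 0.33 against 0.50 and 0.34 (8 h difference 0.033). The 12 h difference of IREB2 became 0.20. The replicate block together with that scaling gave the same values. Under that scaling alone the 8 h difference between the arms became 0.023 for TFRC and 0.12 for ACO1. Scaling to ribosomal protein genes turned FTH1 to 0.55 and 1.15 in shALKBH5 and 0.79 in shNS at 12 h (8 h difference 0.29), FTL to 0.27 and 0.70 against 0.16 and 0.44 (differences 0.11 and 0.26) and TFRC to 0.14 and 0.40 in shNS. It also turned TFRC between the arms to 0.33 at 8 h and 0.059 at 12 h, ACO1 to 0.42 and IREB2 to 0.24 at 8 h, the ACO1 differences to 0.050 and 0.11 and the IREB2 12 h difference to 0.28. Line E as the only knockdown line turned FTH1 to -0.31 at 8 h and -0.41 at 12 h, its 12 h difference to -0.53, and ACO1 at 8 h to 0.030. Line D as the only one turned TFRC to 0.010 at 8 h and 0.16 at 12 h and the FTL 12 h difference to 0.38. ACO1 between the lines was 0.052 without the 8 h libraries, IREB2 across times was -0.0090 without the 12 h libraries, and the IREB2 12 h difference was 0.027 with a pseudocount of 0.1. For the other reversals the cause was not tested.

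The number of the 5 members called moved as follows. With scaling to ribosomal protein genes it was 1 at 0 h, 1 at 8 h and 2 at 12 h in place of 0, and 4 across times in place of 1, where 0.777%, 12.4%, 26.1% and 51.8% of all genes were called. With line D alone it was 4, 1 and 3 at these times where 52.5%, 56.2% and 43.1% of genes were called, and with line E alone 1 at each (21.8%, 27.7% and 23.4%). These fits have 1 knockdown library a group, and limma took their spread from one trend over all genes. For the differences of the change, in place of 0, line D alone gave 3 at 8 h and 1 at 12 h (66.0% and 13.6% of genes). The replicate block gave 1 at each time (26.2% and 2.33%), and the block with median-of-ratios scaling 1 at 12 h (3.52%). Median-of-ratios scaling gave 4 for the shNS change by 8 h in place of 2 (42.5% of genes), and with the block 5 (69.9%), and the shALKBH5 change by 8 h then had 5 in place of 3 (70.4%). Across times it was 0 with the correlation within lines, line means, own spread or no 12 h libraries (9.63%, 5.14%, 13.5% and 4.51% of genes). Between the lines own spread gave 1 in place of 2 (16.7% of genes). The main fits called 21.1% of genes across times and 29.1% between the lines. The block alone gave 4 in place of 3 for shALKBH5 by 8 h and 5 in place of 4 by 12 h in both arms (99.2% to 99.9% of genes), and otherwise changed no count of members called.

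Leaving out each library in turn gave 0 to 1 members called at 0 and 12 h, 0 at 8 h, 2 for shNS by 8 h, 4 to 5 by 12 h in each arm, 2 to 4 for shALKBH5 by 8 h, 0 for both differences, 0 to 2 across times and 2 to 3 between the lines. In the same fits 0.0105% to 10.7% of all genes were called at 0 h, 0.0315% to 24.7% at 8 h, 0.0105% to 4.22% at 12 h, 66.8% to 85.3% for shNS by 8 h, 90.8% to 97.1% for shALKBH5 by 8 h, 99.0% to 99.7% by 12 h, at most 0.0735% for the differences, 12.8% to 24.3% across times and 15.4% to 40.9% between the lines. FTH1 then ranged from -0.31 to 1.31 between the arms at 8 h and -0.41 to 2.04 at 12 h, -0.046 to 0.12 for shNS by 8 h, -1.07 to 0.56 and -2.24 to 0.21 for shALKBH5 by 8 and 12 h, and -1.10 to 0.52 and -1.20 to 1.25 for the differences. TFRC ranged from -0.55 to 0.010 at 8 h, -0.76 to 0.16 at 12 h, -0.21 to 0.17 across times and -0.28 to 0.11 for shNS by 8 h. FTL ranged from -0.16 to 0.0081 for shNS by 8 h and -0.52 to 0.38 for the 12 h difference, ACO1 from -0.35 to 0.030 at 8 h and -0.19 to 0.093 between the lines, and the IREB2 12 h difference from -0.22 to 0.14. Where this left 1 library in a group, its spread was taken from the other groups.

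Over all genes the calls moved more than 1.5 times, from 140 at 0 h to between 1 and 5006, from 470 at 8 h to between 3 and 5352, from 97 at 12 h to between 1 and 4104, from 2008 across times to between 430 and 4935 and from 2777 between the lines to between 1312 and 5045. With median-of-ratios scaling the changes over time went down to 4284 by 8 h and 4412 by 12 h in shALKBH5 (from 9154 and 9489) and to 4049 and 4914 in shNS (from 7833 and 9485). From 0 the difference of the change reached 6285 by 8 h and 1293 by 12 h. No gene was removed by the filter on low values, so the setting without it is void.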
